A study of Arabidopsis thaliana with 3 samples.

Results

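Membrane transporters were sought among the genes with binding of PISTILLATA (PI) or APETALA3 (AP3), MADS-domain proteins of the flower, in their vicinity. A gene was taken when the annotation text beside it in the authors' target tables contained transporter, carrier, aquaporin, antiporter or permease and did not contain kinase. This took 107 of the 3132 genes listed for either factor. The PI table held 84 of them among 2544 genes, and the AP3 table held 69 among 2146. The members were thus chosen from the same lists whose values are given below, and those values are a description with no test.

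The data come from chromatin immunoprecipitation with an anti-GFP antibody followed by sequencing (ChIP-seq) of Arabidopsis flowers. The PI-GFP plants were PI-GFP AP1-GR ap1 cal, the AP3-GFP plants were AP3-GFP AP1-GR ap1 cal, and the negative control was AP1-GR ap1 cal without a tagged factor. All 3 were in the Ler background and carried the 35S:AP1-GR ap1-1 cal-1 system, in which dexamethasone activates an AP1 fusion and many flowers start to develop together. Plants about 4 weeks old, grown at 20 degrees, received 10 µM dexamethasone and were sampled 4 days later, at about floral stage 4 to 5. Each group had 1 library, so no value has a replicate check. Both lists rest on the same negative control, whose own values were not analysed here. The sources used here do not give the promoters of the tagged transgenes or the number of lines.

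Transporters move ions, sugars, amino acids, hormones and lipids across membranes, either by hydrolysing ATP, as ABC proteins and proton pumps do, or by coupling a substrate to an ion gradient, as most carriers and antiporters do. Aquaporins are channels for water and small solutes. In flowers, auxin carriers pattern the sites of new organs, while sugar, amino acid and metal transporters supply petals, stamens and pollen. PI and AP3 act as a dimer that specifies petals and stamens.

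The score of a gene is the highest peak score that the authors gave it in any of 5 windows: 2000 to 3000, 1000 to 2000 and 0 to 1000 bp upstream, inside the gene, and 0 to 1000 bp downstream. It is the authors' own value, the sources used here do not give its formula, and the number of reads behind it is unknown. Scores are therefore ranked within a list, and a PI score is not a multiple of an AP3 score. Ranges in brackets after a share are 95% intervals (exact, Clopper-Pearson) and reflect only the counting of genes or peaks. Positions are on TAIR10 and are given where a score belonged to 1 peak of its chromosome. One peak can be listed for several neighbouring genes.

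The annotation text did not always describe a membrane transporter. In 69 of the 107 genes a keyword stood in the first clause of the text, and in 38 it stood only later. When the texts were read, 13 genes encoded soluble carriers, enzymes or other proteins, such as acyl carrier protein or ferredoxin. Another 6 were linked to lipids, proteins or vesicles. They include AT1G72700, a phospholipid flippase by annotation, which could also be counted as a membrane transporter. The remaining 88 were membrane transporters by annotation, or proteins of unknown function with a transport term. The label thus fitted most members and not all of them, and the 3 kinds are kept apart in the counts of listing and in the account of single genes. Score bins, medians, windows, peak overlaps and neighbours are given over all 107 genes. Of the 88, 33 were in both lists, 36 in the PI list only and 19 in the AP3 list only. Over all 3132 genes listed for either factor, 1558 were in both lists. The counts of genes in both lists per class, given below, are to be read beside this.

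ABC transporters were the largest membrane class with 13 genes, followed by sugar and nucleotide sugar transporters with 12 and the mitochondrial carrier family with 11. There were 10 transporters of potassium, sodium, protons or calcium and 10 of transition metals. Smaller classes were phosphate and other anions (7), amino acids (6), other or unknown (5), aquaporins (4), nitrate and peptides (4), nucleobases and nucleotides (3), auxin carriers (2) and MATE efflux (1). The aquaporins were all listed for PI and not for AP3. The nucleobase and nucleotide transporters were all listed for AP3 and not for PI. With 4 and 3 genes these are counts of small classes.

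**Figure D1:**
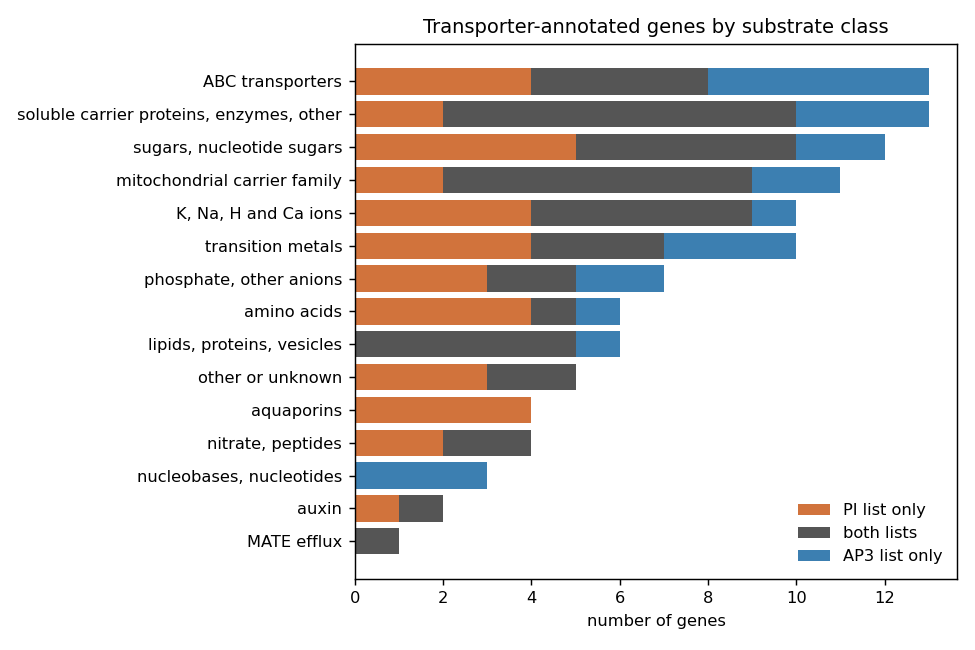
Number of transporter-annotated genes (x axis) in each substrate class (y axis), split into genes in the PI list only, in both lists and in the AP3 list only. ABC transporters divided evenly between the lists, whereas the 4 aquaporins lay on the PI side and the 3 nucleobase and nucleotide transporters on the AP3 side.

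As a background, 8.69% of the 27444 annotated protein-coding genes were listed for PI and 7.26% for AP3. Transporter families taken from gene symbols, independently of the authors' annotation text, were set beside these shares. They comprised 378 genes in 29 families. Genes not matched by symbol were left out, among them listed members such as AT5G13400, AT2G40460 and AT5G26250. How many were left out, listed or not, was not counted. Of the 378 matched genes, 37 were listed for PI (9.79%, 6.99 to 13.2) and 24 for AP3 (6.35%, 4.11 to 9.30). Both shares were near the background, so the matched genes in sum were listed about as often as protein-coding genes in general. By symbol, 22 families had at least 1 listed gene. No gene was listed among the matched SUC and SUT sucrose transporters or the matched STP and TMT or TST sugar transporters. The matched AMT ammonium, SULTR sulfate, LHT amino acid and PUP purine permeases had none either. These counts do not show that whole families were absent. AT5G26250, a putative sugar transporter listed for AP3 (36.2), was matched to no family. Aquaporins had 5 of 34 genes listed for PI (14.7%, 4.95 to 31.1) and 0 of 34 for AP3 (interval to 10.3). The ABCB family, which includes auxin exporters, had 5 of 28 genes listed for PI (17.9%, 6.06 to 36.9) and 6 of 28 for AP3 (21.4%, 8.30 to 41.0). The 6 AP3 genes included the auxin exporter ABCB1 (112.75) but not ABCB19. The others were ABCB28 (175), ABCB27 (63.75), ABCB26 (39.0), ABCB13 (34.9) and ABCB22 (32.9). Of the 29 families, ABCB in the AP3 list was the case whose interval lay above the background, with no test and no adjustment for the number of families.

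Of the 84 members in the PI list, 46 were also in the AP3 list (54.8%, 43.5 to 65.7), and of the 69 members in the AP3 list the same 46 were 66.7% (54.3 to 77.6). Over all listed genes, 61.2% of the PI genes were in the AP3 list and 72.6% of the AP3 genes were in the PI list. The members were thus shared slightly less often than listed genes in general, and both backgrounds lay within the intervals. The lists share a control library, whose part in this was not tested. Among the 88 membrane transporters or unknown proteins, 33 of 69 PI genes were shared (47.8%, 35.6 to 60.2) and 33 of 52 AP3 genes (63.5%, 49.0 to 76.4). The PI share lay below that of all listed genes with an interval that ended under it, in a class drawn after the values were known. Among the soluble carriers and enzymes, 8 of 10 PI genes (interval 44.4 to 97.5) and 8 of 11 AP3 genes (39.0 to 94.0) were shared. Among the lipid, protein and vesicle genes these were 5 of 5 (47.8 to 100) and 5 of 6 (35.9 to 99.6). Each of these intervals held the share of all listed genes, and some of these genes share a peak.

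Sharing followed the score when the genes of a list were divided by score into 4 bins of about equal size. In the lowest PI bin, 7 of 23 members were also in the AP3 list (30.4%), against 29.4% of all listed genes in that bin. The next bins gave 48.0% of members against 50.8% of all genes, and 57.9% (11 of 19) against 74.1%. In the highest bin 16 of 17 members were shared (94.1%), against 90.6%. For AP3 the 4 bins, low to high, gave 38.1, 64.7, 82.6 and 100% of members, against 36.7, 67.7, 89.4 and 96.6% of all genes. The third PI bin was the one in which the members lay farthest below all genes, and its interval for the members (33.5 to 79.7) held the value of all genes.

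**Figure D2:**
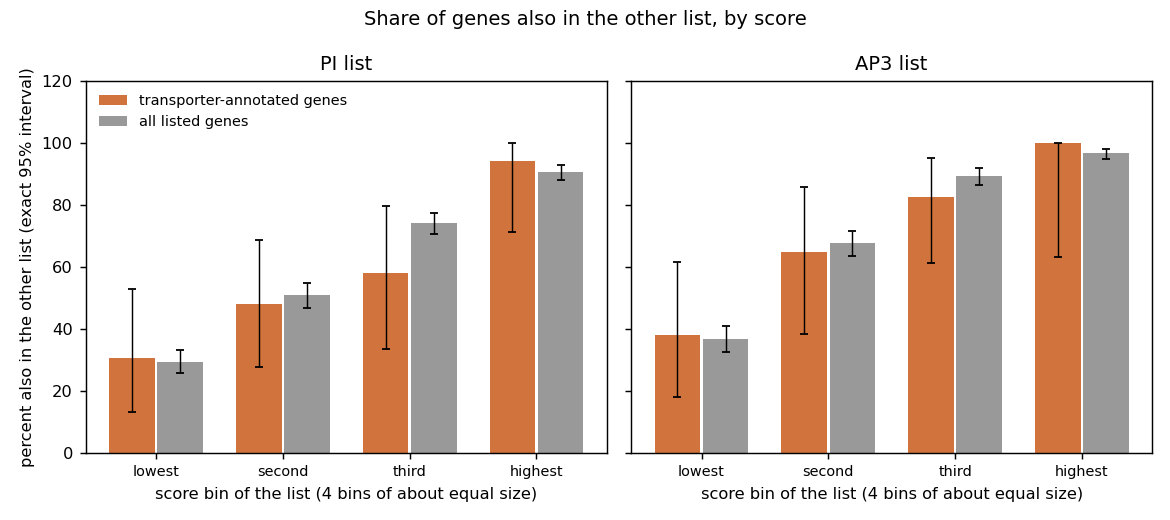
Percent of genes that were also in the other list (y axis), for each of 4 score bins of a list (x axis), with transporter-annotated genes left of all listed genes and exact 95% intervals. In both panels the share climbs with score for either set, to 94.1% of members in the highest PI bin and 100% (8 of 8) in the highest AP3 bin.

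Members had scores somewhat below those of the lists. The median PI score was 79.7 over members and 87.7 over all listed genes, and the median AP3 score was 50.7 over members and 58.2 over all genes. PI scores of members ranged from 28.7 to 2324 and AP3 scores from 28.55 to 1345, and the lowest scores of the lists were 25.3 and 26.6. Shared members had median scores of 113.5 for PI and 68.5 for AP3, and members in 1 list had medians of 62.1 for PI and 37.7 for AP3. Over all listed genes, shared genes had medians of 129.9 for PI and 80.35 for AP3, and genes in 1 list had medians of 53.1 for PI and 37.9 for AP3. Low scores of 1-list genes were thus a feature of the lists as a whole, and among members 29 of 38 for PI and 19 of 23 for AP3 lay under the median peak score of their list.

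**Figure D3:**
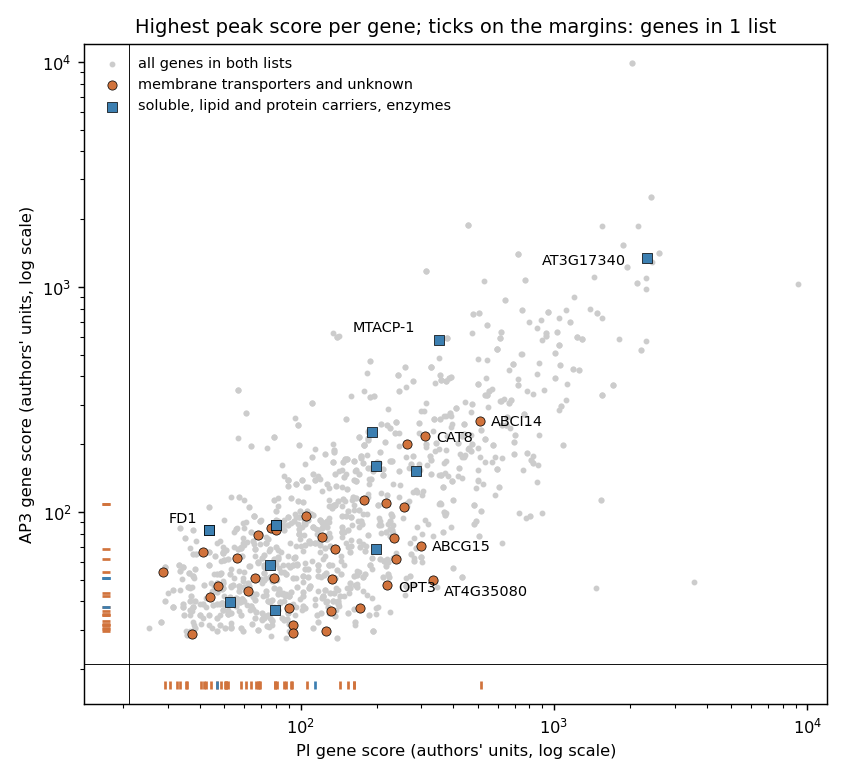
Highest PI score (x axis) and AP3 score (y axis) of each gene, both in the authors' units on log scales, for all genes in both lists (grey), membrane transporters and unknown proteins (orange circles) and the other transporter-annotated genes (blue squares). Ticks in the margins are members in 1 list. AT3G17340 and MTACP-1 have the highest AP3 scores of all members, and OPT3 and AT4G35080 lie at the lower edge of the shared genes.

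**Figure D4:**
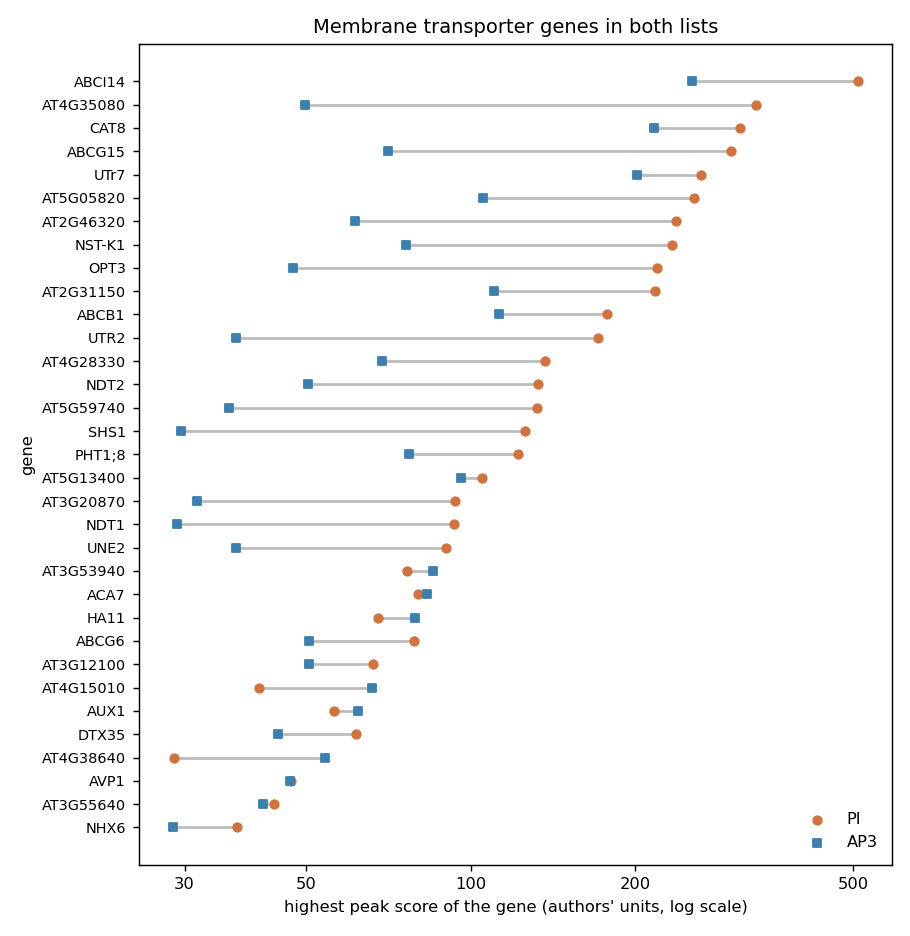
PI score (orange circles) and AP3 score (blue squares) of the 33 membrane transporter and unknown genes in both lists (y axis), on a log x axis in the authors' units and ordered by the higher score. ABCI14 had the highest scores of both factors, and AT4G35080, OPT3 and UTR2 had the widest spans between the factors near the top.

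Among ABC transporters, ABCI14 (AT1G19800), also known as TGD1, the permease of a complex that imports lipids into chloroplasts, scored 511 for PI (rank 204 of 2544) and 254 for AP3 (rank 234 of 2146). Both scores were 1000 to 2000 bp upstream, at chromosome 1, 6844630 to 6845226 for PI and 6844690 to 6845175 for AP3, and the maxima were 8 bp apart. No other gene was listed for these peaks. Among members classed as membrane transporters or unknown, ABCI14 had the highest AP3 score and the second highest PI score. ABCG15 (AT3G21090), a half-size transporter of the subfamily that exports cuticle lipids, scored 298.9 for PI and 70.6 for AP3, both 2000 to 3000 bp upstream. Its PI peak at chromosome 3, 7396944 to 7397719, was also listed for AT3G21100.

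ABCB1 (AT2G36910), an auxin exporter, scored 178 for PI and 112.75 for AP3, both 2000 to 3000 bp upstream. The peaks at chromosome 2, 15499168 to 15499593 and 15499178 to 15499539, had maxima 52 bp apart and were listed for no other gene. ABCB19 (AT3G28860), the auxin exporter that acts together with ABCB1, had a PI score of 60.65 inside the gene (chromosome 3, 10872138 to 10872327) and no AP3 listing. The pair thus differed in listing, with ABCB1 far upstream in both lists and ABCB19 within the gene in 1.

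The other ABC members scored lower. ABCG6 (AT5G13580), which contributes to suberin, scored 78.8 for PI and 50.7 for AP3 inside the gene. For PI alone, ABCG37 (AT3G53480) scored 44.5 and ABCC4 (AT2G47800) scored 35.5, both 2000 to 3000 bp upstream, and ABCB6 (AT2G39480) scored 30.5 within 1000 bp upstream. For AP3 alone, ABCI21 (AT5G44110) scored 68.8, and ABCG13 (AT1G51460), needed for the cuticle of petals, scored 54.1 at 2000 to 3000 bp upstream. ABCB13 (34.9), ABCB22 (32.9) and ABCG9 (30.0) were also listed for AP3 alone. Of the 13 ABC genes, 4 were in both lists, 4 in the PI list only and 5 in the AP3 list only.

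Of the auxin carriers, AUX1 (AT2G38120), the auxin influx carrier, scored 56.2 for PI inside the gene and 62.35 for AP3 1000 to 2000 bp upstream. The PI peak lay at chromosome 2, 15976257 to 15976421, and the AP3 peak at 15970987 to 15971222, so the factors were listed for AUX1 through different sites. It was the single exception among 25 shared members for which both highest peaks had a position: the other 24 pairs overlapped. The same count over all shared genes was not made, so this one has no background.

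Nucleotide sugar transporters, which carry activated sugars into the Golgi and endoplasmic reticulum, led the sugar class. UTr7 (AT4G31600) scored 264 for PI and 201 for AP3 within 1000 bp upstream, and its AP3 peak at chromosome 4, 15317277 to 15317682, was also listed for REM1. NST-K1 (AT4G39390) scored 233 for PI and 76.3 for AP3 within 1000 bp downstream, at chromosome 4, 18318429 to 18318856 for PI. UTR2 (AT4G23010), a UDP-galactose transporter by annotation, scored 171 for PI and 37.3 for AP3 within 1000 bp upstream. The PI to AP3 ratio of UTR2 had rank 82 of the 1558 genes in both lists, counted from the PI end. AT1G76670, annotated as transporter-related, scored 153 for PI at 0 to 1000 bp downstream and was not listed for AP3.

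Other members of the class included INT3 (AT2G35740), an inositol transporter by annotation, which scored 43.55 for AP3 at 2000 to 3000 bp upstream and was not listed for PI. AT1G54720 and AT1G54730 shared a PI score of 78.9, and GONST2, annotated as a nucleotide sugar transporter, scored 58.2 for PI alone. Over the class, 5 genes were in both lists, 5 in the PI list only and 2 in the AP3 list only. PI scores ranged from 35.3 to 264 and AP3 scores from 36.2 to 201.

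The mitochondrial carrier family, whose members exchange metabolites across organelle membranes, held the highest PI score among members classed as membrane transporters or unknown. SAMC1 (AT4G39460), which imports S-adenosylmethionine into plastids, scored 513 for PI (rank 198) at 2000 to 3000 bp upstream, chromosome 4, 18361490 to 18361928. The same peak was listed for AT4G39470 and CYP96A9. SAMC1 was absent from the AP3 list and was the 1 member in the highest PI bin that was not shared.

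AT2G46320, another family member, scored 237 for PI at 2000 to 3000 bp upstream and 61.5 for AP3 at 1000 to 2000 bp upstream. NDT2 (AT1G25380), an NAD carrier, scored 133 for PI inside the gene and 50.5 for AP3 within 1000 bp upstream. Its relative NDT1 (AT2G47490) scored 93.1 for PI and 29.05 for AP3, both inside the gene. SHS1 (AT4G32400), a carrier of nucleotides in plastids, scored 126 for PI and 29.5 for AP3 inside the gene. In the class, 7 of 11 genes were in both lists, and AP3 scores reached 85.2 at most, at AT3G53940.

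Among transporters of potassium, sodium, protons and calcium, AT2G31150 scored 217 for PI and 110 for AP3 within 1000 bp downstream, at chromosome 2, 13275166 to 13275546 and 13275189 to 13275493. The same peaks were listed for LSH3, so they are not particular to the transporter gene. ACA7 (AT2G22950), a calcium pump by annotation, scored 80.3 for PI and 83.1 for AP3 within 1000 bp downstream. HA11 (AT5G62670), a plasma membrane proton pump, scored 67.8 for PI and 79.2 for AP3 within 1000 bp upstream, and the 2 maxima were at the same base of chromosome 5. HA11 and ACA7 were thus among the shared genes where the AP3 score was the higher number.

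PI alone was listed for the potassium transporters KUP11 (AT2G35060; 92.1, 1000 to 2000 bp upstream) and KT2 (AT2G40540; 67.8, inside the gene) and for CAX3 (AT3G51860; 68.3, within 1000 bp upstream), a vacuolar calcium exchanger. Each of these 3 PI peaks was listed for no other gene. NHX6 (AT1G79610), an endosomal sodium and proton exchanger, scored 37.4 for PI and 28.55 for AP3, the lowest AP3 score of any member. Its peaks, at chromosome 1, 29957167 to 29957224 for PI and 29957128 to 29957188 for AP3, were narrow, and the PI peak, 58 bp wide, was the narrowest at any member. ATCHX5 (AT1G08150) scored 29.5 for AP3 alone.

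The metal class was led by AT4G35080, a nickel transporter family gene by annotation, with 333 for PI and 49.9 for AP3 at 2000 to 3000 bp upstream. Its peaks lay at chromosome 4, 16696024 to 16696847 for PI and 16696214 to 16696404 for AP3, with maxima 6 bp apart, and were also listed for AT4G35070. Its PI to AP3 ratio had rank 20 of 1558, the most PI-sided of all members. ZIF1 (AT5G13740), which loads the zinc chelator nicotianamine into vacuoles, and its neighbour ZIFL1 (AT5G13750) shared a PI score of 163 and were not listed for AP3. The score was also that of a peak at CUC2, farther along chromosome 5.

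COPT3 (AT5G59040), a copper transporter, scored 143 for PI alone, on a peak at chromosome 5, 23833564 to 23833915, that was also listed for COPT1. IREG2 (AT5G03570), a vacuolar iron and nickel transporter, scored 108 for AP3 alone within 1000 bp upstream, at chromosome 5, 902608 to 902985. This peak was the one listed for the nucleobase transporter NCS1 (AT5G03555). Weaker 1-list genes were YSL8 (41.4 for PI), ZIP9 (34.7 for AP3) and NRAMP4 (31.6 for AP3), which exports iron from vacuoles. Of the 10 metal genes, 3 were in both lists.

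Phosphate and anion transporters included AT5G05820, a phosphate translocator by annotation, with 257 for PI and 105.5 for AP3 within 1000 bp downstream. No other gene was listed for its peaks at chromosome 5, 1750732 to 1751669 and 1750949 to 1751512. The PI peak was the widest at any member, 938 bp, and the maxima were 348 bp apart, the largest distance among overlapping member peaks. PHT1;8 (AT1G20860) scored 122 for PI and 77.2 for AP3 at 2000 to 3000 bp upstream, and its close relative PHT1;9 (AT1G76430) scored 80.7 for PI alone at 0 to 1000 bp downstream. These 2 were the listed genes of the 9 PHT1 phosphate transporters. PHT4;2 (AT2G38060), a plastid phosphate transporter, scored 91.7 for PI alone.

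Of the amino acid transporters, CAT8 (AT1G17120), a cationic amino acid transporter, scored 311 for PI (rank 379) and 217 for AP3 (rank 281), both within 1000 bp upstream. The peaks at chromosome 1, 5851579 to 5851968 and 5851619 to 5851954, had their maxima at the same base and were also listed for UBP15 and AT1G17130. CAT8 was the 1 amino acid transporter in both lists. For PI alone, AAP1 (AT1G58360), a neutral amino acid importer, scored 106 inside the gene at chromosome 1, 21678961 to 21679312. ProT3 (AT2G36590), a proline transporter, scored 85.7 for PI and AT5G02170 scored 50.5, both 1000 to 2000 bp upstream. The remaining 2 genes of the class scored 40.5 for PI and 42.4 for AP3.

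OPT3 (AT4G16370), which loads iron into the phloem and bears the name of the oligopeptide transporters, scored 220 for PI and 47.3 for AP3. Both scores were inside the gene, at chromosome 4, 9249905 to 9250510 for PI and 9249953 to 9250170 for AP3, with maxima 27 bp apart. No other gene was listed for them, and the ratio had rank 78 of 1558. AT5G13400, a peptide transporter by annotation, scored 105 for PI and 96.1 for AP3 within 1000 bp upstream. AT2G40460 (87.6, inside the gene) and AT2G28120 (46.6, downstream) were listed for PI alone.

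The 4 aquaporins had low PI scores and were not in the AP3 list. TIP2;2 (AT4G17340), of the tonoplast, scored 69.0 and NIP1;2 (AT4G18910) scored 63.5, both inside the gene. NIP3;1 (AT1G31885) scored 42.25 at 2000 to 3000 bp upstream, and PIP3 (AT4G35100), of the plasma membrane, scored 32.4 inside the gene. In the nucleobase and nucleotide class, listed for AP3 alone, NCS1 scored 108 at 2000 to 3000 bp upstream, AZG1 (AT3G10960), a purine transporter, scored 31.5 inside the gene, and NTT1 (AT1G80300), the plastid ATP importer, scored 30.5. DTX35 (AT4G25640), a MATE transporter needed for flavonoids in flowers, scored 61.8 for PI and 44.5 for AP3 within 1000 bp upstream.

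In the remaining membrane or unknown genes, AT4G28330 scored 137 for PI and 68.8 for AP3 within 1000 bp upstream. AT4G38640, a choline transporter by annotation, scored 28.7 for PI, the lowest PI score of any member, and 54.1 for AP3, a ratio of rank 1494 of 1558. AT4G35200 and AT4G35210 shared a PI peak of 50.9.

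The genes outside the membrane transporter and unknown classes held the highest PI score and the highest AP3 score of all members. AT3G17340, a protein transporter by annotation, scored 2324 for PI (rank 8) and 1345 for AP3 (rank 17) within 1000 bp downstream, at chromosome 3, 5920056 to 5920619 and 5920080 to 5920599. The peaks were also listed for its neighbour ECT6. AT1G72700, a phospholipid flippase by annotation, scored 192 for PI and 227 for AP3 at 2000 to 3000 bp upstream on peaks also listed for CAD1. AT5G47510, a phosphatidylinositol transfer protein by annotation, scored 199 for PI and 68.3 for AP3, also with a neighbour, PME5. TMN1 (AT1G10950) and the ferredoxin gene FD1 (AT1G10960), an electron carrier of photosynthesis, shared scores of 43.4 for PI and 82.9 for AP3 and had the lowest PI to AP3 ratio of any member (rank 1498).

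MTACP-1 (AT2G44620), the acyl carrier protein of mitochondria, scored 353 for PI (rank 333) and 584 for AP3 (rank 86) inside the gene, with maxima 2 bp apart. Its peaks, at chromosome 2, 18414001 to 18414505 and 18414029 to 18414505, were also listed for RAB6A and AT2G44640. KCS3 (AT1G07720), a beta-ketoacyl-CoA synthase by annotation, the kind of enzyme that elongates fatty acids, scored 286 for PI and 151 for AP3 at 2000 to 3000 bp upstream. AT5G22990, a zinc finger gene, scored 198 for PI and 160.0 for AP3 on peaks also listed for MYB37. The desaturase genes AT5G16230 and AT5G16240 shared scores of 79.9 for PI and 87.2 for AP3.

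By window, the highest PI score of members lay 0 to 1000 bp upstream in 25% (21 of 84, beside 30.8% of all listed genes), downstream in 22.6% (19.4%), inside the gene in 21.4% (16.9%), 2000 to 3000 bp upstream in 19.0% (17.9%) and 1000 to 2000 bp upstream in 11.9% (15.0%). The highest AP3 score of members lay 0 to 1000 bp upstream in 29.0% (27.5% of all listed genes), 2000 to 3000 bp upstream in 26.1% (15.8%), downstream in 17.4% (21.3%), inside the gene in 15.9% (20.8%) and 1000 to 2000 bp upstream in 11.6% (14.5%). The 2000 to 3000 bp window in the AP3 list was the one where the interval of the members, 16.3 to 38.1, lay above the value of all listed genes. The margin was narrow, with no test and no adjustment for the number of windows and lists looked at. Scores in more than 1 window were held by 5 of 84 PI members (5.95%, against 12.3% of all genes) and 6 of 69 AP3 members (8.70%, against 11.1%). Of the 46 shared members, 41 had their highest score in the same window for both factors (89.1%, against 90.0% of all shared genes). The exceptions were AT2G46320, NDT2, AT5G59740, AUX1 and AT4G38640.

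**Figure D5:**
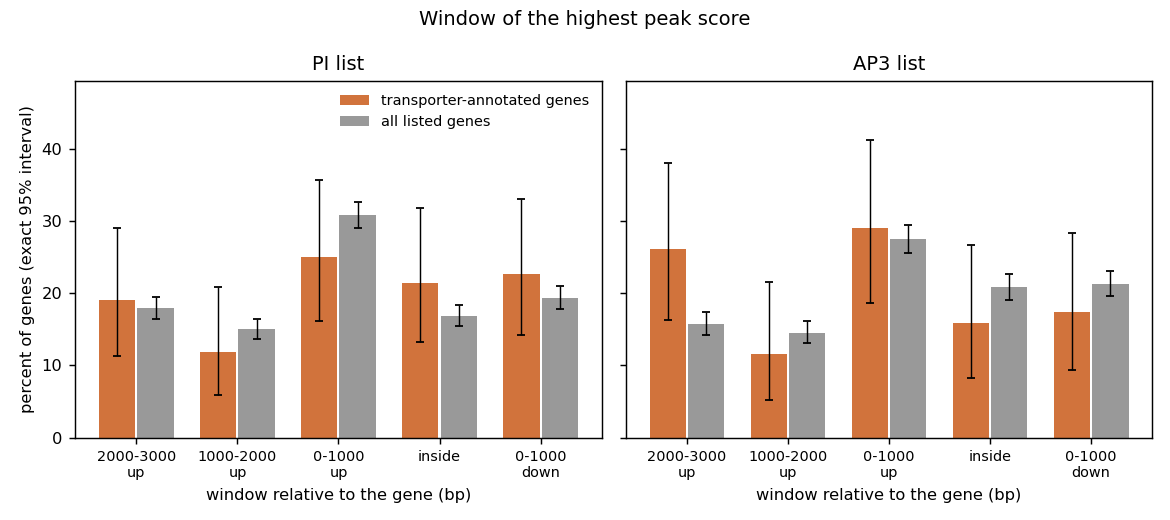
Percent of genes (y axis) whose highest score lay in each window (x axis), for the PI and AP3 lists, with transporter-annotated genes left of all listed genes and exact 95% intervals. The intervals of members and all genes overlap in each window, and the widest gap is 2000 to 3000 bp upstream in the AP3 list, with 26.1% of members beside 15.8% of all genes.

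Peaks at members had the form of peaks in general. Of 60 positioned PI peaks, 37 overlapped an AP3 peak (61.7%, 48.2 to 73.9), against 55.3% of all PI peaks, and of 40 positioned AP3 peaks 31 overlapped a PI peak (77.5%), against 69.5% of all. The median distance between maxima of overlapping peaks was 25 bp at members and 23 bp over all. Median widths were 348 bp for PI and 273 bp for AP3 at members, and 335 and 257 bp over all peaks.

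Most members shared their peak with a neighbouring gene. The highest peak was listed for another gene in 38 of 58 positioned PI members (65.5%, 51.9 to 77.5), against 76.8% of all genes, and in 30 of 39 AP3 members (76.9%), against 78.9%. The 20 PI members whose peak was listed for no other gene included ABCI14, OPT3, ABCB1, NST-K1, UTR2, AAP1, AUX1, ABCB19 and PHT1;9. The 9 such AP3 members were ABCI14, AT5G05820, NST-K1, OPT3, ABCB1, AUX1, ABCG13, AVP1 and ABCG9. For these genes the listing does not hang on a peak counted for a neighbour as well.

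Some members had a close relative in the lists. The annotation named a most similar locus for 81 members, and 14 of these loci were listed, 5 of them through the same peak and 9 through another (11.1%, 5.21 to 20.0). Over all listed genes with such a locus, the share listed through another peak was 18.2%, within the members' interval. Members that name each other, such as NDT1 and NDT2, are counted in both directions, so the 9 are not separate pairs. The pairs included NDT1 and NDT2, PHT1;8 and PHT1;9, AT3G53940 and AT3G55640, and NIP3;1 with NIP1;2.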

How the data were processed

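The PI-GFP and AP3-GFP libraries, 1 each, were analysed. The authors deposited, per the file headers, a peak list and a gene table for each library, with a score per peak and, in the gene table, the highest peak score in 5 windows. BWA 0.6.1, SAMtools and TAIR10 are named in the submitters' processing notes. The sources used here do not state gene models, caller, calling threshold or numbers of reads, so depth is unknown.

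Members and lists were chosen with earlier results of these data known. Substrate classes were assigned by hand from the annotation text that the authors deposited, and 29 families from gene symbols of a RefSeq table (TAIR10.1), where all 107 members matched and 14 loci with a misleading symbol were left out. The symbols do not cover every family member. Genes were matched to peaks by chromosome and identical score. Named were the 10 highest genes of either list, up to 4 per class, the 4 highest 1-list genes per factor, the 3 most extreme ratios at either end, and family members. Others named share a peak, a relative or a window change, or complete a class, and were chosen after their values were seen. An item that the naming rule takes is not reported here. No test was run. Shares have exact Clopper-Pearson 95% intervals. The overlap and keyword rules, but not the intervals, were checked on simulated data. Alternatives were annotation, score, window and overlap rules. Python 3.11.15, pandas 2.3.3, SciPy 1.17.1 and matplotlib 3.10.9 were used.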

Additional observations from a re-analysis of the deposited data

How the results depend on the processing

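The number of members depended on the rule, and the shares between lists moved less. With a keyword required in the first clause, there were 51 PI and 45 AP3 members. Scores at or above the median peak score left 36 PI and 31 AP3 members. Keeping each score for 1 gene left 42 PI and 31 AP3 members, and counting only scores within 1000 bp upstream or inside the gene left 40 PI and 33 AP3 members. With a reciprocal overlap of 50%, 41.7% of PI peaks and 57.5% of AP3 peaks at members overlapped the other list. The shares of all peaks under this rule are not given here. The all-peak shares above are for any overlap and are not a background for it. Of 40 alternative values for 8 results, the other 30 stayed within 1.5 times the main count or within its interval. Over the alternatives, the share of PI members also in the AP3 list ranged from 47.5 to 57.5%, and that of AP3 members also in the PI list from 58.1 to 71.0%. The score, single-gene and window rules were applied to both lists, so a shared gene had to pass in both. The score bins above cut 1 list only and are not the same measure. In 2 settings the share of all listed genes lay above the members' interval. Without the keyword carrier, 47.5% of PI members (34.6 to 60.7) were shared against 61.2%. With scores at or above the median peak score in both lists, 58.1% of AP3 members (39.1 to 75.5) were shared against 77.6%. In the membrane classes, too, the share of all listed genes lay above the PI interval. Restricting members to the membrane transporter and unknown classes, an alternative chosen after seeing the data, gave 69 PI and 52 AP3 members. No paired analysis was possible because each group has 1 library. A gene missing from a list may have had a peak under the authors' threshold, and with unknown depth it is not known which sites were detectable.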

Other observations

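Gene symbols pointed to 13 listed transporter genes whose annotation text held none of the keywords. ABCB28 (AT4G25450), a half-size ABC transporter, scored 512 for PI and 175 for AP3 within 1000 bp upstream, close to the highest membrane transporter scores above. SWEET1 (AT1G21460), a glucose transporter, scored 393 for PI and 85.75 for AP3 at 1000 to 2000 bp upstream, and SWEET11 (AT3G48740), a sucrose exporter, scored 44.2 for PI and 48.5 for AP3 at 2000 to 3000 bp upstream. They were 2 of 17 SWEET genes, and both were in both lists. ABCC1 (AT1G30400), a vacuolar ABC transporter, scored 215 for PI alone. The nitrate and peptide family added AT1G33440 (182 for PI), AT3G16180 (146 for PI and 153 for AP3) and AT1G52190 (125 for PI).

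COPT1 (AT5G59030) shared the PI score of 143 with COPT3, and ZIP4 (AT1G10970) shared the scores of FD1 and TMN1, 43.4 for PI and 82.9 for AP3. ABCB27 (AT5G39040) scored 89.05 for PI and 63.75 for AP3 within 1000 bp downstream. The remaining genes were PIP1B (62.8 for PI), NHX3 (43.2 for PI) and ABCB26 (39.0 for AP3), each in 1 list. PIP1B was the fifth aquaporin listed for PI and absent from the AP3 list.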
